A study of Mus musculus with 6 samples.

Results

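Imprinted genes that lie inside an intron of another gene were examined in male germ cells of mice, together with the genes that host them. There are 5 such windows, at Mcts2 inside H13, Nap1l5 inside Herc3, Zrsr1 inside Commd1, the inner transcript of Inpp5f, and Nnat inside Blcap, which make 9 genes in all. Members were every CpG cytosine listed in all 6 libraries within an imprinted gene or within 1 kb of an end of the gene or its host, on GRCm38. These rules found 544 cytosines, 305 in the imprinted windows and 239 at host ends, of 2206320 used across the genome. In the same windows 841 cytosines were listed in at least 1 library. The gene table does not list the inner Inpp5f transcript. Its window was therefore taken as the densest 2 kb of listed cytosines inside that gene and over 5 kb from both of its ends. Commd1 had no cytosine listed in all 6 libraries at either end of its table entry, and the 27 cytosines around its RefSeq start site, a window chosen after the positions were seen, stand in for its host end and are not among the 544.

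The study compared 3 Control libraries with 3 labelled CSDS, for chronic social defeat stress, a procedure in which an animal is repeatedly confronted with a dominant aggressor. Methylation was read by reduced representation bisulfite sequencing, in which unmethylated cytosines are read as T and methylated ones as C at positions near sites cut by a restriction enzyme. The labels give no strain, age, stage of germ cell or number of animals per library, and do not say that replicates are separate animals. The p-values therefore measure only the spread between these libraries, and with 3 against 3 an exact permutation test cannot go below 0.1.

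Imprinted genes are expressed from the copy of 1 parent only, and the choice is kept by methylation laid down in the egg or in the sperm. All of the windows here belong to the kind that is methylated in the egg and left unmethylated in sperm, so that the paternal copy is expressed. Several of these genes, Mcts2, Nap1l5 and Zrsr1 among them, arose as copies of a spliced message inserted into an intron, and their CpG-rich start became an imprinted region while the promoter of the host stayed unmethylated on both copies. At H13 and Herc3 the inner promoter is known to affect where the host message ends, so host and inner gene are read out by parental copy.

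The RefSeq promoter windows of these genes (250 bases before to 50 after a start site, GRCm38.p6) show which CpGs were read at the start sites. They are shown for Mcts2, for Zrsr1, for an inner start site of Commd1 that lies within Zrsr1, and for the outer start site of Commd1, since these hold the most listed cytosines of an imprinted region and of a host. Capitals mark the CpGs read in all 6 libraries, on the strand of the gene named.
Mcts2, chr2:152686898-152687197, plus strand: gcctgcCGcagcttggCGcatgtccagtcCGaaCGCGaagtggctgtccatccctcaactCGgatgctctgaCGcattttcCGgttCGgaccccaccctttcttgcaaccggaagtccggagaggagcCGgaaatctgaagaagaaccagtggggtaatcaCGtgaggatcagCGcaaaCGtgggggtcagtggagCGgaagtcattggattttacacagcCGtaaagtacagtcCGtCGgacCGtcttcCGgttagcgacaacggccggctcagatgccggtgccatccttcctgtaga
Zrsr1, chr11:22971755-22972054, plus strand: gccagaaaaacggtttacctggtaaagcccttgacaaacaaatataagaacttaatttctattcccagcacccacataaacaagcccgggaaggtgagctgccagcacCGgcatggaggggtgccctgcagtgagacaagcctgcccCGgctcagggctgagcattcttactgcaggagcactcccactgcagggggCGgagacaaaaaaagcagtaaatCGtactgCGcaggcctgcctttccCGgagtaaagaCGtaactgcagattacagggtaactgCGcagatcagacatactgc
Commd1 inner start, chr11:22972817-22973116, minus strand: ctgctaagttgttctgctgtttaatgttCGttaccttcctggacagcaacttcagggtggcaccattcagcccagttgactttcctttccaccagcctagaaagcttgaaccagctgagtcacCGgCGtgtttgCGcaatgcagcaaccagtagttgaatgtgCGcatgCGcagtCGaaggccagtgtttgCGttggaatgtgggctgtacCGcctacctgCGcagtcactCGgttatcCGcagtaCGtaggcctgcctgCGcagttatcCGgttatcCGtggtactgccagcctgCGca
Commd1 outer start, chr11:22982235-22982534, minus strand: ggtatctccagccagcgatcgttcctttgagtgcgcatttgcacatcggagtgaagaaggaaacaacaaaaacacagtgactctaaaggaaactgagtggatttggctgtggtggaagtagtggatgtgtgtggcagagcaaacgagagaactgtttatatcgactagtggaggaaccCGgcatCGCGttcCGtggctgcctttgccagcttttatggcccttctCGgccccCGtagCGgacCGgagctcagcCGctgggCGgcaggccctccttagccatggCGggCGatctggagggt
Of the 25 CpGs in the Mcts2 window 19 were listed, of the 10 in the Zrsr1 window 8, of the 17 at the inner Commd1 start 17, and of the 18 at the outer Commd1 start 12. In the promoter windows of Nap1l5 and Nnat, each with 17 CpGs, no CpG was listed in all 6 libraries, and none was at H13, Herc3 or Inpp5f. The values for Nap1l5 and Nnat below thus come from neighbouring positions. The letters TGCCGC, the motif that the imprint-protecting zinc finger protein ZFP57 reads when it is methylated, were searched on both strands. They were found in 11.6% of all 32817 promoter windows, with 1 match in the window of Mcts2, 2 in that of Nap1l5, 1 in that of Nnat and 1 at the outer start of Commd1, and none in the Zrsr1 and inner Commd1 windows.

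All 5 imprinted windows were low in methylation, and the bodies of their hosts were mostly high. Over the 5 windows the Control mean was between 18.1% and 20.9%, against 91.9% ± 1.29 (SD, n = 3) over the 45 cytosines inside Herc3, 92.4% ± 2.07 (SD, n = 3) over the 2 inside Commd1, 96.5% ± 1.79 (SD, n = 3) over the 5 inside Inpp5f and 95.1% ± 3.17 (SD, n = 3) over the 7 inside Blcap. The interior of H13 was lower, at 67.5% ± 1.21 (SD, n = 3) over 69 cytosines. The 5 windows differed little in level from one another in Control libraries, by less than the spread between replicates of Mcts2.

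Mcts2, a copy of a gene for a factor of translation initiation, was covered from chr2:152686786 to 152687149, at and before its start, by 61 cytosines and 3750 to 6076 reads per library. The Control libraries read 19.8%, 25.0% and 17.9%, and the CSDS libraries 17.1%, 16.7% and 13.7%. All CSDS libraries were below all Control libraries, with means of 20.9% ± 3.70 and 15.8% ± 1.88 (SD, n = 3 each). The difference was -5.06 points, CSDS minus Control (exact two-sided permutation p = 0.1, the smallest possible). Control 2 stood above the other Control libraries here, and without it the difference was -3.0 points. By the median over cytosines the groups overlapped, at 14.3%, 24.0% and 11.8% in Control and 12.6%, 11.8% and 9.43% in CSDS (exact permutation p = 0.3).

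Nap1l5, which encodes a relative of the nucleosome assembly proteins, was covered by 36 cytosines inside the gene, chr6:58906634-58906878, 248 to 492 bp after its start. The Control libraries read 17.9%, 17.7% and 19.4%, and the CSDS libraries 19%, 11.9% and 13.5%. CSDS 1 lay among the Control libraries and CSDS 2 and 3 below them. The difference of means was -3.51 points (exact permutation p = 0.3).

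Zrsr1, a copy of a gene for a pre-mRNA splicing factor, held the most members, 131 cytosines at chr11:22971863-22974253. The Control libraries read 18.4%, 23.3% and 20.7%, and the CSDS libraries 21.9%, 14.3% and 13.8%. CSDS 1 was above the Control mean and CSDS 2 and 3 below every Control library. The difference was -4.17 points (exact permutation p = 0.3). Cytosines toward the far end of the window were more methylated, and the 9 in chr11:22974001-22974500 had a Control mean of 36.1% ± 2.07 and a CSDS mean of 30.2% ± 3.25 (SD, n = 3).

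The inner window of Inpp5f, a gene for a phosphoinositide phosphatase whose inner transcript is imprinted, had 19 cytosines at chr7:128688092-128688347 and the fewest reads, 637 to 1165 per library. The Control libraries read 16.6%, 19.7% and 17.9%, and the CSDS libraries 18.6%, 6.01% and 5.9%. CSDS 2 and 3 stood apart from the other 4 libraries, while CSDS 1 read as the Control libraries did. The difference of -7.91 points was the largest of the 5 imprinted windows and also had the widest CSDS spread, with means of 18.1% ± 1.54 and 10.2% ± 7.30 (SD, n = 3 each, exact permutation p = 0.3).

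Nnat, which encodes the small membrane protein neuronatin, was covered by 58 cytosines at chr2:157559574-157561859. The Control libraries read 21%, 18.3% and 21.5%, and the CSDS libraries 18.3%, 9.76% and 13%. CSDS 2 and 3 were again the lowest, and the difference was -6.55 points (exact permutation p = 0.2). Of the 500 bp tiles in the imprinted windows, the one with the most negative difference lay here, chr2:157561001-157561500, with 13.1%, 17.6% and 9.51% in Control and 5.13%, 0% and 4.29% in CSDS, but it rested on 3 cytosines. That tile's difference was -10.3 points (unadjusted p = 0.00881 and adjusted p = 0.191 in the genome-wide quasi-binomial test, its variances moderated as in limma).

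CSDS 2 and CSDS 3 were both below the other 4 libraries in 5 of 5 imprinted windows. They were so at every host end with data too, so this order is not particular to the imprinted windows. In 1 of the 5 imprinted windows, Mcts2, all CSDS libraries were below all Control libraries. CSDS 1 was above the Control mean in 3 of these 5. CSDS 2 and 3 also had the lowest share of C at the 27 mitochondrial CpG cytosines, DNA that is largely unmethylated. That share was 8.9%, 8.84% and 10% in Control and 8.5%, 4.41% and 4.53% in CSDS, as medians. With each library corrected for its own mitochondrial share, the differences were -2.18 points at Mcts2, -0.403 at Nap1l5, -1.18 at Zrsr1, -4.99 at Inpp5f and -3.7 at Nnat (exact permutation p between 0.2 and 0.7). The sign of 3 of these corrected values rested on 1 library: without Control 2 they were 0.291 at Mcts2 and 0.374 at Zrsr1, and without CSDS 2 the value was 0.471 at Nap1l5. Leaving out 1 library at a time gave corrected values of -8.15 to -3.35 at Inpp5f and -4.88 to -2.3 at Nnat. These are means over cytosines. By corrected medians over cytosines the differences were -2.36 points at Mcts2, -0.783 at Zrsr1 and -4.89 at Inpp5f. They changed sign at Nap1l5 (0.545) and Nnat (0.325).

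By the median over cytosines all 5 imprinted windows were again lower in the CSDS mean, and the groups overlapped in all 5. The differences of medians were -5.4 points at Mcts2, -2.82 at Nap1l5, -3.99 at Zrsr1, -7.86 at Inpp5f and -3.11 at Nnat, with exact permutation p of 0.3, 0.4, 0.3, 0.3 and 0.4. At the host ends they were -2.24 at the 3′ end of H13, -1.39 at Herc3, -2.33 at the outer start of Commd1, -2.58 at the start of Inpp5f, where the groups did not overlap, and -4.67 at Blcap.

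**Figure D1:**
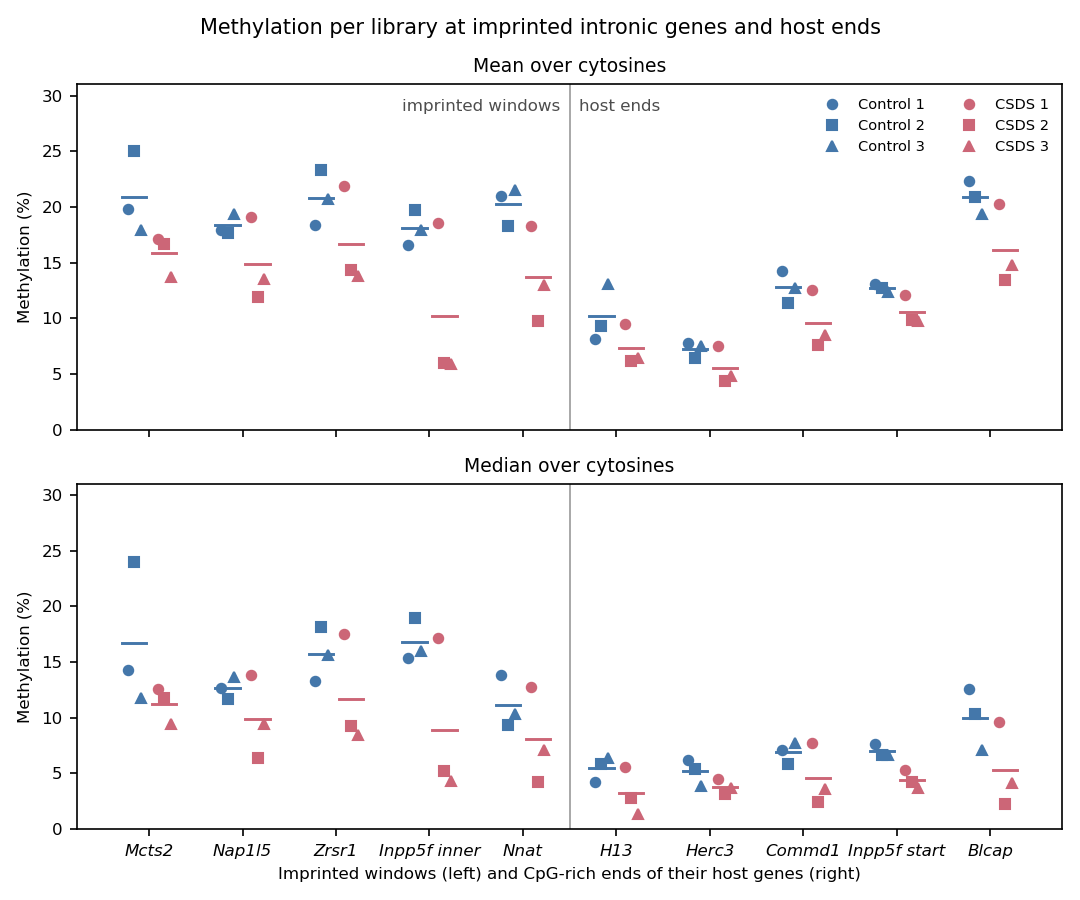
Methylation in percent (vertical axis) per library at the 5 imprinted windows and at the host end with more listed cytosines, as the mean (top) and median (bottom) over cytosines. Points are libraries and bars are group means. CSDS 2 and CSDS 3 are the lowest libraries at all 5 imprinted windows by both measures except Mcts2 by the median, where CSDS 2 and Control 3 are both at 11.8%. CSDS 2 and CSDS 3 are also the lowest at every host end shown, by both measures.

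Single cytosines in these windows were not uniform. Most were low, with a median over cytosines of 12.3% at Mcts2, 10.4% at Nap1l5, 13.1% at Zrsr1, 12.5% at Inpp5f and 10.8% at Nnat (mean of the 6 libraries), but 11 of the 305 were over 80%. In each of these 11 CpGs the cytosine on the other strand was lower by at least 20 points. The cytosine at chr2:152687148, at the start of Mcts2, read 100% in 5 libraries and 93.5% in Control 3, and the cytosine at chr11:22972766 in Zrsr1 read 100% in all 6. The Mcts2 position lies in the letters CCGG, which is the cutting site of the enzyme MspI used in this method and reads the same on both strands. The letters around cytosines outside the promoter windows, such as the Zrsr1 position, could not be read.

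Across promoters of low methylation, cytosines over 80% were found only in CCGG. In 9958 RefSeq promoter windows with a median below 20%, 7856 of 43798 cytosines in CCGG were over 80% (17.9%), against 0 of 208048 cytosines in other CpGs. The CCGG cytosines averaged 37.2% in Control and 33.2% in CSDS, and the others 7.89% and 4.55%. CCGG was found in 52.8% of all promoter windows. In the sequences printed above it occurs 7 times in the Mcts2 window, 4 times in the Zrsr1 window and 2 times at each Commd1 start. CCGG cytosines averaged 45.4% at Mcts2, 33.2% at Zrsr1, 34.2% at the inner and 42.0% at the outer Commd1 start. A window's mean therefore includes cytosines of a sort that read high also in other promoters of low methylation, and the median over cytosines is given beside it. Whether bases filled in at fragment ends were removed is not given in the sources used here. The window levels printed here may in part be such bases, which was not tested.

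With the CCGG cytosines left out, the promoters of Mcts2 and Zrsr1 were higher than most other promoters of low methylation. Nap1l5, Nnat and the inner Inpp5f transcript had no such value. The other CpGs averaged 12.3% over 31 cytosines at Mcts2, 11.1% over 10 at Zrsr1 and 11.5% over 29 at the inner Commd1 start, against 5.7% over 16 at the outer Commd1 start (mean of the 6 libraries). Among 9154 low promoters with at least 5 such cytosines, with a median of 6.1%, 98.6% lay below Mcts2, 97.8% below Zrsr1 and 98.1% below the inner Commd1 start, but 36.1% below the outer one. The promoter of Blcap, the host of Nnat, was higher than 99.1% of them, with 13.5% over 7 cytosines. Its libraries were uneven, at 24.5%, 22.9% and 6.95% in Control and 18.6%, 3.78% and 4.13% in CSDS. At the inner Commd1 start Control 2 was the high library, at 24.3% against 12% and 8.66% in the other Control libraries and 12.8%, 7.02% and 4.54% in CSDS.

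**Figure D2:**
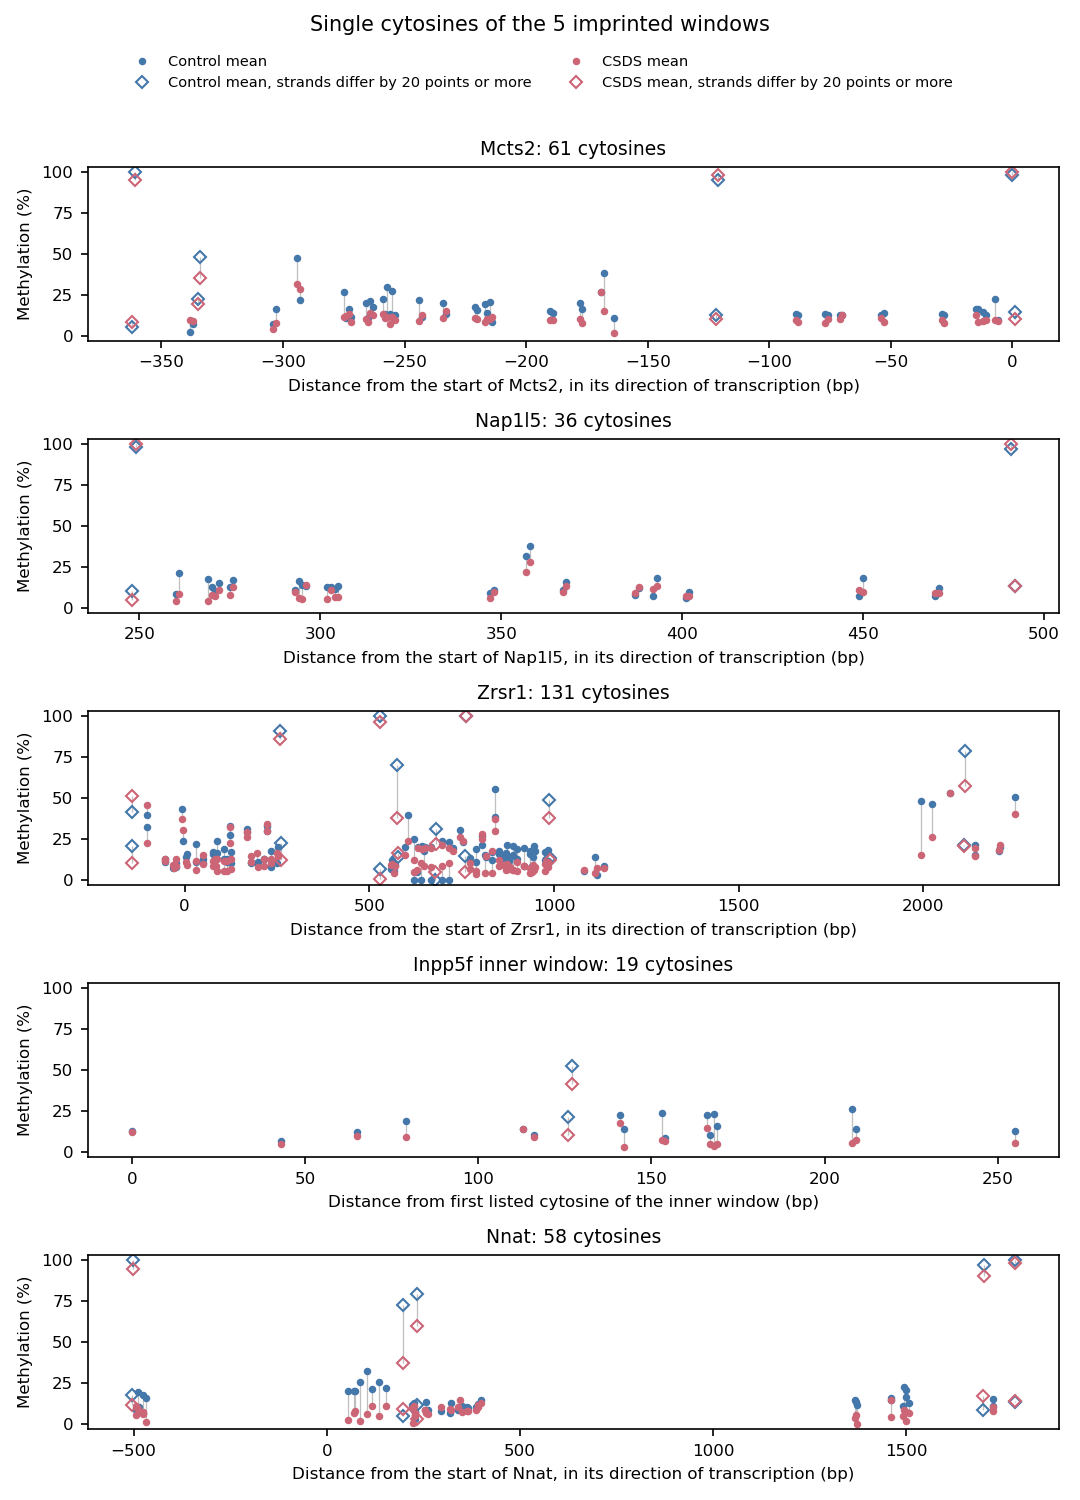
Methylation in percent of single cytosines (vertical axis) against distance in bp along each imprinted window, as Control and CSDS means joined by a grey line. Open diamonds are CpGs whose strands differ by at least 20 points, and they hold all 11 cytosines over 80%.

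By cytosine, 238 of the 305 in the imprinted windows were lower in the CSDS mean and 66 higher, where 67.9% of all cytosines were lower. Groups did not overlap at 48 cytosines lower in CSDS and at 3 higher, where 10.5% of all cytosines of the genome were lower without overlap and 1.73% higher. At 15.7%, the members' share of 48 in 305 was above the genome's, but neighbouring cytosines share reads, and the share was not set against that of other windows of low methylation. No cytosine was called, here or in the genome (0.0% called, at an adjusted p under 0.05 and a difference of at least 10 points). In the quasi-binomial test 48 of the 304 tested in these windows had an unadjusted p under 0.05, where 10.8% of all tested cytosines did. The lowest adjusted p in these windows was 0.181.

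The non-overlapping cytosines with the widest difference were at Nnat and Zrsr1. At chr2:157560275 in Nnat (minus strand) the Control libraries read 70.6%, 71.4% and 76.7% and the CSDS libraries 46.5%, 25.6% and 39.0%, on 21 reads or more. At chr11:22972581 in Zrsr1 (plus strand) they read 69.2%, 70.4% and 71.0% against 52.9%, 22.9% and 37.0%. At both CpGs the opposite strand was lower by at least 20 points. At chr11:22974000 in Zrsr1 the values were 47.8%, 60% and 36.4% against 7.14%, 15.2% and 22.6%, on as few as 15 reads.

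Differences were also seen at CpGs whose strands were within 20 points of each other in mean level. At chr2:152686891 before the start of Mcts2 the Control libraries read 32.1%, 33.3% and 23.3% and the CSDS libraries 12.1%, 14.4% and 8.57%. At chr2:152686980, a CCGG cytosine of Mcts2, they read 25.3%, 45.2% and 43.8% against 15.7%, 23.3% and 5.97%. CSDS 3 was the lowest library at both. At chr6:58906865 in Nap1l5 they read 23.5%, 16.1% and 23.7% against 7.81%, 3.77% and 13%. At chr7:128688300 in Inpp5f they read 28.0%, 30% and 20% against 11.4%, 5.26% and 0%. At each of these 4 cytosines all CSDS libraries were below all Control libraries and the adjusted p was between 0.253 and 0.412 (quasi-binomial test). Their differences were -17.9, -23.1, -12.9 and -20.4 points, in the order named. On the opposite strand of the same CpGs the differences were -5.57, 0.284, -4.27 and -6.64 points, and the groups overlapped at each.

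Of the 3 cytosines higher in CSDS without overlap, 2 were in Zrsr1 and 1 in Nnat. At chr11:22971903 in Zrsr1 (minus strand) the Control libraries read 39.3%, 42.4% and 38.1% and the CSDS libraries 42.7%, 51.5% and 43.8%, on 68 reads or more, a difference of 6.07 points. At chr11:22972721 in Zrsr1 all Control libraries read 0% and the CSDS libraries 20%, 8% and 3.03%, on as few as 16 reads. At chr2:157561777 in Nnat the values were 8.7%, 9.38% and 8% against 17.5%, 13.1% and 21.6%, on 46 reads or more, and the strands of this CpG differ. The adjusted p of the 3 was between 0.453 and 0.795 (quasi-binomial test). On the strands opposite chr11:22972721 and chr2:157561777 the differences were -3.33 and -6.83 points, and the groups overlapped.

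The host ends were mostly lower in methylation than the imprinted windows, and all of them were lower in the CSDS mean. H13, which encodes signal peptide peptidase, had more listed cytosines at its 3′ end than at its start, whose promoter window holds 21 CpGs, none listed in all 6 libraries. At the 3′ end the Control mean was 10.2% ± 2.62 and the CSDS mean 7.35% ± 1.83 (SD, n = 3; 40 cytosines, chr2:152707676-152707837). The start of H13 was read at only 4 cytosines, which were at 54.0%, 52.3% and 53.1% in Control and 50.9%, 38.7% and 45.9% in CSDS, groups that did not overlap. All 4 belong to CpGs whose strands differ. The start of Herc3, a ubiquitin ligase gene, was the least methylated, at 7.23% ± 0.735 and 5.55% ± 1.71 (57 cytosines, chr6:58831378-58832105). The outer start of Commd1, a gene involved in copper handling, was at 12.8% ± 1.42 and 9.53% ± 2.6 (chr11:22982167-22982356). The start of Inpp5f was at 13.1%, 12.7% and 12.4% in Control and 12.1%, 9.81% and 9.76% in CSDS, without overlap, over 84 cytosines (chr7:128610223-128611988, exact permutation p = 0.1).

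The start of Blcap, a small gene named for its level in bladder cancer, was, beside the 4 cytosines at the start of H13, the other host end that was not below the imprinted windows. It was at 22.3%, 20.9% and 19.4% in Control and 20.3%, 13.4% and 14.8% in CSDS over 54 cytosines (chr2:157565695-157566523), as high as Nnat inside it. Its 6 cytosines over 80% all belong to CpGs whose strands differ, and its median over cytosines was 10% ± 2.74 for Control libraries and 5.33% ± 3.81 for CSDS (SD, n = 3). Corrected for the mitochondrial share, the differences at host ends changed sign at the 3′ end of H13 (0.612 points), Herc3 (1.96), the outer start of Commd1 (0.081) and the start of Inpp5f (1.17), and were -1.77 at Blcap and -6.54 at the 4 cytosines at the start of H13. With 1 library left out as well, the corrected value was -0.329 at the 3′ end of H13 without Control 1, and at the outer start of Commd1 it was -0.46 without Control 2, -0.363 without Control 3, -0.12 without CSDS 1 and -0.0284 without CSDS 3. It stayed between 1.65 and 2.48 at Herc3 and between 0.567 and 1.72 at the start of Inpp5f. With all 6 libraries and the correction, all CSDS libraries at Herc3 were above all Control libraries, with levels between -2.86% and 0.286%. Corrected levels below 0 mean that the mitochondrial share is larger than what was read there.

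Each imprinted window was also set against its host end within the same library. Mcts2 was above the 3′ end of H13 by 11.7, 15.8 and 4.76 points in Control and 7.64, 10.5 and 7.29 in CSDS. Nap1l5 was above Herc3 by 10.1, 11.3 and 11.9 points in Control and 11.6, 7.57 and 8.66 in CSDS. Zrsr1 was above the outer Commd1 start by 4.23, 11.9 and 7.97 points against 9.4, 6.68 and 5.24. In these 3 pairs the inner gene was higher in 6 of 6 libraries, and the groups overlapped.

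The inner Inpp5f window was above the start of Inpp5f by 3.46, 6.98 and 5.53 points in Control and by 6.51 in CSDS 1, but was below it in CSDS 2 and 3, at -3.8 and -3.86. Nnat was above Blcap in 1 of 6 libraries, Control 3 at 2.13 points. By medians over cytosines the inner gene was higher in 6 of 6 libraries for Mcts2, Nap1l5, Zrsr1 and Inpp5f, and in 5 of 6 for Nnat.

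The groups overlapped in the size of this step in all 5 pairs. The differences between groups were -2.24 points for Mcts2, -1.83 for Nap1l5, -0.918 for Zrsr1, -5.71 for Inpp5f and -1.84 for Nnat, with exact permutation p of 0.6, 0.3, 0.7, 0.3 and 0.4. Without Control 2 the value was 0.265 points for Mcts2 and 1.01 for Zrsr1, so the sign of both rested on that library. Zrsr1 also changed sign without CSDS 3, to 0.0147 points, and Nnat by medians, to 1.56 points.

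**Figure D3:**
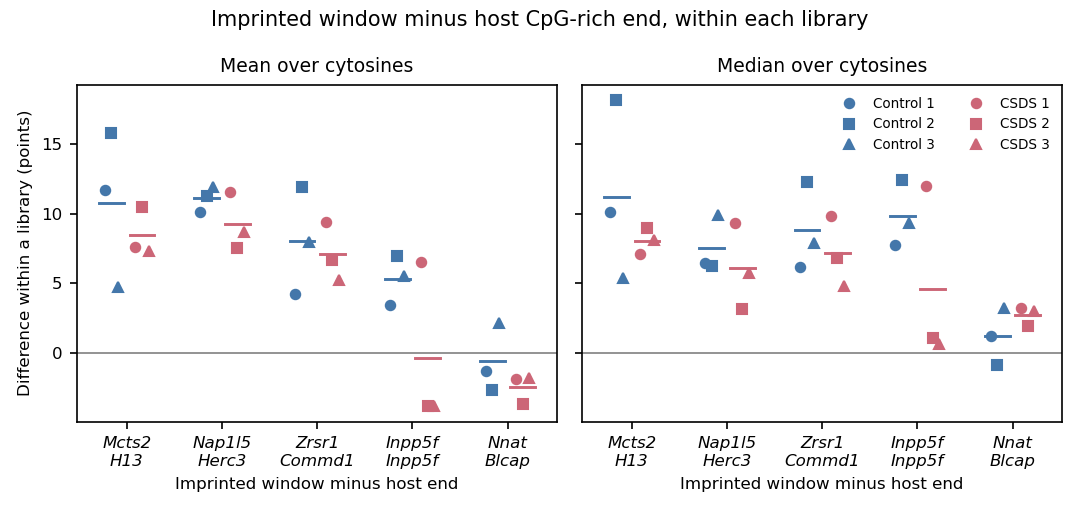
Imprinted window minus host end within each library, in points of methylation (vertical axis), by the mean and by the median over cytosines. Points are libraries and bars are group means; the inner Inpp5f values of CSDS 2 and 3 are at -3.8 and -3.86 by the mean and just above 0 by the median.

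Set against the genome, the members' differences had the sign of most windows. Of 29725 windows at gene ends, 87.3% were lower in the CSDS mean, with a median difference of -3.04 points. The 11 member windows ranged from -8.01 points at the start of H13 to -1.67 at Herc3, and 11 of 11 were lower. The groups did not overlap in 4 of the 11, at the start of H13, the lower end of Mcts2, the upper end of Nnat and the start of Inpp5f, where the background was 27.7% of windows lower without overlap and 0.824% higher. None of the 11 was called, as 0.0% of all windows were (quasi-binomial test moderated as in limma, lowest adjusted p 0.157 for members and for all, with 8724 windows at an unadjusted p under 0.05). Windows with a more negative difference made up 14.4% of all for the lower end of Mcts2, 17.7% for its upper end, 6.14% for the lower end of Nnat and 10.4% for its upper end. They made up 30.6% for the lower end of Zrsr1 and 38.5% for the upper end of Nap1l5. Among hosts they made up 2.81% for the start of H13, 18.2% for Blcap, 54.8% for the 3′ end of H13, 66.3% for Inpp5f and 72.9% for Herc3. The ends of Mcts2 share cytosines, so they are not independent. With each library corrected for its mitochondrial share, 59.1% of all gene-end windows were lower, with a median difference of -0.367 points. Then 8.1% were lower and 3.88% higher without overlap. Windows with a more negative corrected difference made up from 2.51% of all, for the start of H13, to 90.9%, for Herc3.

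Whole short genes with 1 kb either side gave the same picture for the 4 that qualify. Of 7297 such windows 25.0% were lower without overlap and 0.973% higher, and 0.0% were called. The adjusted p was 0.178 for Mcts2, 0.184 for Nnat, 0.237 for Zrsr1 and 0.340 for Nap1l5. In 500 bp tiles, 13 of 13 in the imprinted windows were lower in the CSDS mean, with a difference of only -0.00284 points in 1 of them, in Zrsr1, where 73.7% of all tiles were lower. Of the 13, 4 were lower without overlap, against 15.7% of all 162810 tiles lower and 1.8% higher without overlap, and 0.0% called. Most tiles of the genome are highly methylated, with a Control median of 90.2%, so that share is not one of like windows. With the mitochondrial correction 60.8% of all short genes and 58.5% of all tiles were lower.

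The count of calls rested on CSDS 1. Without it, 499 gene-end windows were called (497 lower in CSDS), 100 short genes and 2344 tiles. Among the members 9 of 11 gene ends and 4 of 4 short genes then had an adjusted p under 0.05, where 54.6% of all gene-end windows and 41.2% of all short genes did. The start of H13 was past the 10 points needed for a call, at -10.9, but not past the test (adjusted p = 0.376 in the limma-moderated quasi-binomial test). The other 10 gene ends were between -9.13 and -2.65 points and the 4 short genes between -8.88 and -5.65. Of the 13 tiles in the imprinted windows 8 had an adjusted p under 0.05, where 17.6% of all tiles did. Of the 13, 2 were called, against 2344 of all 162810 tiles, most of which are highly methylated. They were that of the inner Inpp5f window (chr7:128688001-128688500, -12.1 points, adjusted p = 0.00022) and the 3-cytosine tile of Nnat (-11.3 points, adjusted p = 0.0357), both in the limma-moderated quasi-binomial test. The libraries then left in CSDS are those with the low mitochondrial share.

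**Figure D4:**
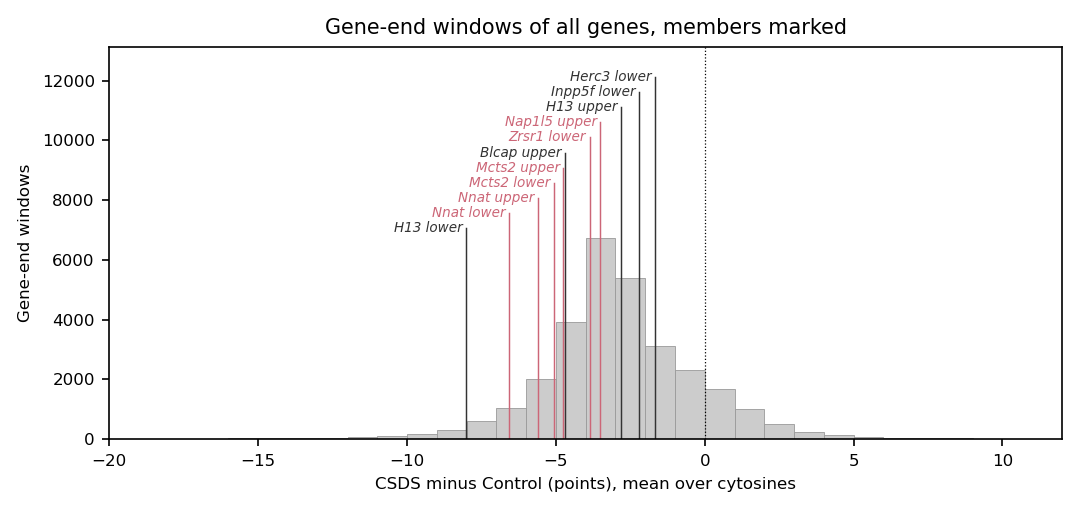
Number of gene-end windows (vertical axis) by CSDS minus Control difference in points, 1 point per bar, over 29725 windows. Lines mark the 11 member windows, imprinted genes in red and hosts in black, where lower and upper name the end by coordinate; all lie between -8.01 and -1.67 points.

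The CpG-rich ends of other genes whose imprint is laid down in the egg gave values of the same order. Of 19 listed, 16 had a CpG-rich end with data, 14 were lower in the CSDS mean, 4 without overlap, and 0 were called (4 at an unadjusted p under 0.05). Their median difference was -4.23 points, against -3.19 over all 23095 CpG-rich gene ends, of which 20833 were lower. Over those ends 30.5% were lower without overlap, 0.615% higher, and 0.0% called, and 8020 had an unadjusted p under 0.05 in the quasi-binomial test. With the mitochondrial correction 10 of the 16 were lower, with a median difference of -1.3 points. Over all 23095 ends 13576 were then lower, with a median difference of -0.329 points. A CpG-rich end here is the end of a gene with more cytosines listed in all 6 libraries. It was picked by that count alone and need not be the region that carries the imprint. Peg10 and Sgce share 1 such window, as do Usp29 and Peg3, so the 16 are not separate measurements. Grb10, a growth-restraining adaptor gene, was at 12.2% in Control and 7.23% in CSDS, Igf2r, the receptor that clears IGF2, at 20.2% and 15.8%, and Mest, named for its transcript in mesoderm, at 26.6% and 21.5%. Peg10, a gene derived from a retrotransposon, was at 14.8% and 16.5%. Of the 3 genes listed for imprints laid down in sperm, all 3 were lower in CSDS at their CpG-rich end, H19 at 33.9% and 32.0%, Meg3 at 28.5% and 25.9% and Rasgrf1 at 13.1% and 8.28%; these ends are not their imprint control regions. Of 4 genes for proteins that protect imprints 3 had data, 2 of them lower. With the mitochondrial correction 1 of the 3 sperm-imprint genes was lower, and 1 of the 3 protector genes.

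Markers of cells that a germ cell preparation could also hold were mostly lower in the CSDS mean, as were 20833 of all 23095 CpG-rich gene ends. Of the Sertoli markers 7 of 8 were lower in the CSDS mean, of the Leydig markers 4 of 4 measured of 6, of the immune markers 1 of 2 measured of 6, and of the germ line genes 10 of 11 measured of 12. With the mitochondrial correction 5 Sertoli, 3 Leydig, 1 immune and 6 germ line genes were lower. The Sertoli list's median level was 12.2% to 20.9% across libraries, the Leydig list's 68.6% to 71.9%, the immune list's 92.1% to 96.7% and the germ line list's 15.8% to 23.8%. Methylation at gene ends does not give the amount of a cell type, and its part in the levels of the imprinted windows was not tested.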

How the data were processed

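DNA of male germ cells was extracted and made into bisulfite libraries with a kit for reduced representation sequencing, per the labels' protocols. Trim Galore 0.5.0 and Bismark 0.20.0 were used for trimming and alignment to GRCm38, per the submitters' processing notes. The deposited tables give for each cytosine a coverage, which is a read count, and the percent read as C and as T, per the file headers. No listed coverage count is under 10. Conversion rate and removal of filled-in bases are not given in the sources used here. Each library listed 2420308 to 3156788 cytosines with a median coverage of 44 to 50 reads, and 2210988 were listed in all 6; the top 0.1% of coverage was left out. Reads are not independent molecules.

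Methylated counts were taken from percent and coverage. Window values are means over cytosines, weighted equally, compared by exact two-sided permutation tests. Gene ends, short genes (up to 5 kb), 500 bp tiles and cytosines were fitted genome-wide by a quasi-binomial logistic model with limma's variance moderation, with Benjamini-Hochberg adjustment, with calls at an adjusted p below 0.05 and at least 10 points. Windows had at least 3 cytosines. The model was tested on simulated data. The code ran on Python 3.11.15 with numpy 2.4.6 and scipy 1.17.1, and limma 3.58.1 on R 4.3.3. Alternatives were a coverage minimum of 20, summed reads, no cap, flanks of 500 bp and 2 kb, each library left out, a replicate block, the mitochondrial correction, limma on the log2 ratio of methylated to unmethylated reads, 1 added to each, and at least 5 cytosines. Medians over cytosines, leaving out CpGs whose strands differ by at least 20 points (11.2% of CpGs read on both strands), the correction with 1 library left out, and CSDS 1 alone were added after the data were seen. So were medians with the mitochondrial correction. Same-numbered libraries did not deviate together (correlations of -0.0325, -0.0258 and -0.00502). Named cytosines are the lowest and highest of each imprinted window and up to 3 of largest difference among those whose groups do not overlap; the 3 cytosines higher in CSDS were chosen after their values were seen, as were the tiles named. Members and lists were chosen with earlier results of these data known.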

Additional observations from a re-analysis of the deposited data

How the results depend on the processing

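The differences between groups kept their sign in 216 of 227 alternative values over the 5 imprinted windows, the 5 host ends and the 5 differences between them. That count includes settings that repeat the main value. The replicate block cannot move a difference, and lifting the coverage cap moved none. The count is thus not a measure of how firm the signs are. Leaving out 1 library at a time gave -6.58 to -3.0 points at Mcts2, -5.65 to -2.05 at Nap1l5, -6.79 to -2.72 at Zrsr1, -12.1 to -5.77 at Inpp5f and -8.88 to -4.58 at Nnat. For the imprinted window minus the host end, leaving out 1 library gave -5.23 to 0.265 points for Mcts2, -2.99 to -0.979 for Nap1l5, -2.82 to 1.01 for Zrsr1, -9.15 to -3.97 for Inpp5f and -2.87 to -0.465 for Nnat. The sign turned for Mcts2 without Control 2 (0.265) and for Zrsr1 without Control 2 (1.01) and without CSDS 3 (0.0147), and for Nnat with medians (1.56). With CSDS 1 as the only CSDS library it turned at Nap1l5 (0.77), Zrsr1 (1.08) and Inpp5f (0.522). With the mitochondrial correction it turned at the host ends of H13 (0.612), Herc3 (1.96), Commd1 (0.081) and Inpp5f (1.17). Corrected medians, which are not among the 227 values, turned it at the imprinted windows of Nap1l5 (0.545) and Nnat (0.325). The cause was not tested. Leaving out CpGs whose strands differ gave -5.48, -3.92, -3.84, -7.51 and -6.44 points at Mcts2, Nap1l5, Zrsr1, Inpp5f and Nnat. Of the libraries left out, only CSDS replicate 1 raised the calls from 0, to 499 gene-end windows, 100 short genes and 2344 tiles; leaving out any other library gave 0. A coverage minimum of 20 called 1 cytosine in the genome. With a replicate block the calls stayed at 0, and sign-flip tests over the 3 pairs, which cannot go below 0.25, gave p of 0.25 to 0.75; the block left differences as they were, at -5.06 for Mcts2, -3.51 for Nap1l5, -4.17 for Zrsr1, -7.91 for Inpp5f and -6.55 for Nnat. Flanks of 500 bp left no cytosine at the 3′ end of H13. Depth limits single cytosines most: at 10 to 20 reads 1 read is worth 5 points or more.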
